A study of Homo sapiens with 8 samples.

Results

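The genes described here encode 10 proteins that myeloid cells pack into their granules: MPO, ELANE, PRTN3, AZU1, CTSG, LYZ, RNASE2, RNASE3, SRGN and CFD. They were taken by gene symbol from 2 tables, one of ribosome footprints and one of input RNA. All 10 were found once in each table, out of 58302 genes. The cells were MOLM-13, an established human acute myeloid leukaemia line with an MLL-AF9 fusion and a FLT3 internal tandem duplication. They carried a control short hairpin (sh-NC) or one against circMYBL2 (sh-circMYBL2), a circular RNA from the MYBL2 gene, and the series asks about translation of FLT3. Each hairpin had 2 input RNA and 2 footprint libraries, 8 in all. The labels give neither the time after the hairpin was introduced, nor whether the cells were 1 clone or a pool, nor whether the 2 libraries of a kind were separate cultures. The spread that the p-values below measure may therefore be technical. The circular RNA itself was not analysed here, since values of the MYBL2 gene do not measure it. The table columns of the sh-circMYBL2 footprints do not tell the replicate, so those libraries are called a and b.

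Neutrophils and their precursors make primary (azurophil) granules at the promyelocyte stage and fill them with enzymes that kill and digest microbes. MPO is the haem enzyme myeloperoxidase, which makes hypochlorous acid. ELANE (neutrophil elastase), PRTN3 (proteinase 3) and CTSG (cathepsin G) are serine proteases, and AZU1 (azurocidin) is a relative of them without protease activity. CFD, complement factor D, is a serine protease that cleaves factor B in the alternative pathway. LYZ, lysozyme, cuts bacterial cell walls. RNASE2 and RNASE3 are ribonucleases known from eosinophil granules, and RNASE2 is also made by monocytes. SRGN is serglycin, the proteoglycan core on whose sulphated chains granule proteases are held. Monocytic cells keep LYZ and SRGN high while the primary granule genes are switched off, so the set joins genes of different stages.

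AZU1, PRTN3, ELANE and CFD lie side by side on chromosome 19, from AZU1 at 827837 to 832018, through PRTN3 at 840999 to 848175 and ELANE at 852303 to 856243, to CFD at 859664 to 863641 (RefSeq, GRCh38.p14). On chromosome 14, CTSG spans 24573518 to 24576250, RNASE3 spans 20891385 to 20892348 and RNASE2 spans 20955487 to 20956436. MPO is on chromosome 17 (58269855 to 58280935), LYZ on chromosome 12 (69348381 to 69354234) and SRGN on chromosome 10 (69087603 to 69104811). RefSeq promoter sequences were matched for 6 of the 10 genes, not for MPO, ELANE, LYZ and SRGN. They are shown because CTSG and CFD, the 2 genes whose RNA differed between the hairpins, went opposite ways, and because AZU1 and PRTN3 are neighbours of CFD. Each line is the 150 bases before the gene's start, 5′ to 3′ on the gene's strand. Capitals mark GAGGAA (the core bound by PU.1 and other ETS factors; TTCCTC on the other strand) and TTNNGNAA (a loose C/EBP motif; TTNCNNAA on the other strand).
CTSG, chr14:24576251-24576400, minus strand: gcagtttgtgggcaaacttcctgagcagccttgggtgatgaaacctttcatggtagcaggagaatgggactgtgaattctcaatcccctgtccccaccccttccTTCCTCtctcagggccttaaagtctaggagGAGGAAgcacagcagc
CFD, chr19:859514-859663, plus strand: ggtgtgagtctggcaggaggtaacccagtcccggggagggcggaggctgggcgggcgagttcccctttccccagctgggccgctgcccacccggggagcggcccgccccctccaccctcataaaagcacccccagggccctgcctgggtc
PRTN3, chr19:840849-840998, plus strand: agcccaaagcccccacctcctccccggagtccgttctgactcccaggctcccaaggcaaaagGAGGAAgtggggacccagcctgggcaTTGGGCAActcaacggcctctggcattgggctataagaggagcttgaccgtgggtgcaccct
AZU1, chr19:827687-827836, plus strand: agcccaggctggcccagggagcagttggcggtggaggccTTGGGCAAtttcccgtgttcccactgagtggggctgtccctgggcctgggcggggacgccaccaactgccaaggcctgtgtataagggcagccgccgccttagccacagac

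The CTSG window held 2 ETS cores and no C/EBP match, the PRTN3 window held 1 of each, the AZU1 window held 1 C/EBP match, and the CFD window held neither. AZU1 and PRTN3 carried the same 8 letters, TTGGGCAA, 111 and 62 bases before their starts. Of 35116 RefSeq promoters, 5188 (14.8%) held the ETS core and 7028 the C/EBP motif in this window, on either strand. Another motif, AACNG (the MYB core; CNGTT on the other strand), was in the CTSG, PRTN3 and AZU1 windows and in 52.1% of all promoters. A match is a description of letters and not a bound site. The windows of the paralogues RNASE2 and RNASE3 are shown because the pair differs widely in RNA level.
RNASE2, chr14:20955337-20955486, plus strand: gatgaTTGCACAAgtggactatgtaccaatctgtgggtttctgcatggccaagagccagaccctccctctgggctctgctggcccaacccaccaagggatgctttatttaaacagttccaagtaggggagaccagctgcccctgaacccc
RNASE3, chr14:20891235-20891384, plus strand: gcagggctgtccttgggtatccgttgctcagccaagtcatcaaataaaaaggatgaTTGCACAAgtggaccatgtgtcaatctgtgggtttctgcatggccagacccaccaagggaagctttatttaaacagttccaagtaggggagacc

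Over 99 aligned bases of these windows, 94 were identical (94.9%, with 34 gap positions). Both held TTGCACAA, the C/EBP motif on the other strand. These windows lie before the gene's start and say nothing of the transcripts, which were not compared here. How far reads of one paralogue were counted in the other is not known.

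Recovered from the deposited values, reads on genes numbered 13503572 to 14602080 per input RNA library and 80148 to 715047 per footprint library. The sh-NC footprint libraries were the poorer ones in protein-coding reads, with 33708 and 88695 against 125755 and 584161 in libraries a and b. Of the footprint reads, 42.7% and 57.2% in the sh-NC libraries and 32.8% and 12.2% in libraries a and b fell on microRNA genes. Depth and composition thus moved with the hairpin in the footprints, and their part in the footprint results was not tested. All 10 markers of a myeloid leukaemia line that were looked up, such as CD33, SPI1 and HOXA9, had input RNA above 0 (summed 237 to 244 FPKM with sh-NC, 272 to 280 with sh-circMYBL2). Of these, 9 had a mean of at least 1 FPKM and were tested. FLT3 alone passed and rose, from a mean of 105.3 to 138.9 FPKM (0.40, limma adjusted p = 0.0232). Of all genes tested, 4.92% were called higher and 3.96% lower. FLT3 footprints did not pass and overlapped between the hairpins (0.17, limma adjusted p = 0.862). In footprints ANPEP was at 0 with either hairpin, and FCGR1A was at 0 with sh-circMYBL2. Of the other cell types looked up, 12 erythroid markers summed to at most 1.12 FPKM in an RNA library and 10 megakaryocyte markers to at most 0.112. HBA2, AHSP, PF4, GP9, CD2 and MS4A1 were at 0 in all 4 RNA libraries. Of 10 lymphoid markers 2 were tested, and IL7R passed and rose (1.14 on the log2 scale, adjusted p = 0.0114). The 10 lymphoid markers summed to at most 3.53 FPKM in sh-NC cells, against 7.24 FPKM with sh-circMYBL2. The adherent cell list summed to 5.93 to 6.56 FPKM in sh-NC cells, against 4.50 to 4.69 with sh-circMYBL2. Its 1 tested gene, ACTA2, was lower (-0.36, limma adjusted p = 0.0463). Shares of calls in marker lists this small are not read as differing from those of all genes. The limit given below for list calls with 1 RNA library left out holds for the marker calls too.

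With the circMYBL2 hairpin, input RNA of CTSG fell and that of CFD rose by a small amount, while the other 8 granule genes did not pass the test. Of the 10 genes 1 was higher and 1 was lower by limma at an adjusted p under 0.05, where 4.92% of all 12489 genes tested were called higher and 3.96% lower. The shares of the granule genes, at 1 gene each, are too coarse to be read as differing from these. By voom on recovered reads 4 were higher (ELANE, PRTN3, LYZ and CFD) and 2 lower (MPO and CTSG), where it called 13.7% of all genes higher and 12.5% lower. The 10 genes had a median log2 change of 0.17 beside 0.00 for all genes tested. Together they took 0.313% and 0.296% of protein-coding RNA reads in sh-NC cells, against 0.343% and 0.338% with sh-circMYBL2. LYZ and SRGN held 81.1% to 83.2% of the summed FPKM of the 10 genes, so this share mostly follows them. LYZ had 28320 reads with sh-NC and 36523 with sh-circMYBL2, and SRGN had 29081 and 29032.

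CTSG RNA was 43.7 and 40.6 FPKM in sh-NC cells, against 22.1 and 24.8 FPKM with sh-circMYBL2. Both control libraries lay well above both others. In bulk RNA, fewer cells of a kind and less RNA per cell cannot be told apart. The change in limma was -0.82 on the log2(FPKM + 1) scale (SE 0.07, 95% interval -1.02 to -0.62, adjusted p = 0.0161), and 1.37% of genes tested lay below it. On reads, the scaled ratio was 0.558 (1600 reads against 916; 95% interval 0.514 to 0.606, exact, counting error only). Leaving out any 1 of the 4 RNA libraries left 0 genes called in the whole table (2608 to 2827 at an unadjusted p under 0.05). CTSG then had changes of -0.90 to -0.74 with adjusted p from 0.0873 to 0.0970. CTSG also missed the threshold when all genes above 0 were tested (adjusted p = 0.0571).

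The relation of CTSG to its fellow protease ELANE does not depend on how a library was scaled. CTSG RNA per ELANE RNA was 0.943 and 0.771 in sh-NC cells, against 0.396 and 0.415 with sh-circMYBL2. Against the summed FPKM of the 4 genes on chromosome 19, CTSG stood at 0.262 and 0.227 with sh-NC and at 0.118 and 0.119 with sh-circMYBL2. The groups do not overlap in either ratio. CTSG was thus lower relative to the other serine protease genes within the same libraries.

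CFD RNA was 17.5 and 16.8 FPKM in sh-NC cells, against 20.6 and 22.03 FPKM with sh-circMYBL2. The change was 0.30 (SE 0.05, 95% interval 0.16 to 0.44, limma adjusted p = 0.0487), close to the threshold. It missed the threshold after quantile normalization (adjusted p = 0.0545) and with any 1 library left out (adjusted p from 0.128 to 0.177).

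The 3 neighbours of CFD had RNA values in the same direction that did not pass. ELANE had 46.3 and 52.6 FPKM in sh-NC cells, against 55.8 and 59.6 FPKM with sh-circMYBL2 (0.22, SE 0.08, adjusted p = 0.154). PRTN3 had 81.6 and 87.2 FPKM against 87.6 and 101.6 FPKM (0.16, SE 0.09, adjusted p = 0.299). AZU1 had 21.2 and 22.4 FPKM against 23.9 and 25.6 FPKM (0.17, SE 0.05, adjusted p = 0.129). In all 4 genes of the cluster both sh-circMYBL2 libraries lay above both sh-NC libraries, for PRTN3 by a narrow margin, which 30.0% of all genes tested did too. The genes that flank the cluster did not pass: PLPPR3 had a change of 0.06 (SE 0.14, adjusted p = 0.827) and MED16 of -0.03 (SE 0.13, adjusted p = 0.914).

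LYZ RNA was 604 and 557 FPKM in sh-NC cells, against 754 and 705 FPKM with sh-circMYBL2. The groups did not overlap, and the change of 0.33 (SE 0.06, 95% interval 0.16 to 0.50) narrowly missed the threshold in limma (adjusted p = 0.0554). It passed when only genes with a mean of at least 5 were tested (adjusted p = 0.0309), when libraries were scaled to equal protein-coding sums (0.46, adjusted p = 0.0218) and by voom (adjusted p = 2.03e-09). In the other 10 alternatives it did not pass, such as quantile normalization (0.16, adjusted p = 0.297) and no filter (limma adjusted p = 0.165). With 1 RNA library left out the change of LYZ ran from 0.27 to 0.39. SRGN RNA was 881 and 842 FPKM in sh-NC cells, against 830.1 and 845 FPKM with sh-circMYBL2. Those values overlap, and the change was -0.04 (SE 0.04, 95% interval -0.15 to 0.07, adjusted p = 0.571). LYZ RNA per SRGN RNA was 0.686 and 0.661 in sh-NC cells, against 0.909 and 0.834 with sh-circMYBL2.

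MPO, whose protein fills the granules of neutrophils, was the lowest of the 10 in RNA. It had 3.18 and 3.21 FPKM with sh-NC (149 and 163 reads), against 2.27 and 2.32 FPKM with sh-circMYBL2 (111 and 119 reads). The values were lower in both sh-circMYBL2 libraries, with a change of -0.35 (SE 0.07, adjusted p = 0.0619). By voom it passed (-0.47, adjusted p = 0.0124). In 11 other alternatives it did not, such as no filter (limma adjusted p = 0.145) and equal protein-coding sums (-0.25, limma adjusted p = 0.0832).

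The ribonuclease pair differed in level and neither member passed. RNASE2 RNA was 100.8 and 100.04 FPKM in sh-NC cells, against 101.1 and 87.1 FPKM with sh-circMYBL2 (-0.10, SE 0.08, adjusted p = 0.479). RNASE3 RNA was 4.70 and 4.05 FPKM against 6.60 and 4.59 FPKM (0.28, SE 0.17, adjusted p = 0.358). In both genes the libraries of the hairpins overlap, and without sh-circMYBL2 library 1 RNASE3 had a change of 0.06. RNASE3 stood at 0.0405 to 0.0653 of the RNASE2 level in the 4 RNA libraries.

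In FPKM, which is per gene length, the RNA levels with sh-NC ran in the order SRGN, LYZ, RNASE2, PRTN3, ELANE, CTSG, AZU1, CFD, RNASE3 and MPO, and no neighbours in that order overlapped between libraries. With sh-circMYBL2 the libraries of RNASE2 and PRTN3 overlapped, as did those of CTSG and AZU1. CTSG thus moved from above AZU1 to its level. Over the 10 genes, 5 were higher without overlap (ELANE, PRTN3, AZU1, LYZ and CFD) and 2 lower (MPO and CTSG), where 30.0% and 30.7% of all genes tested did so. Another scaling moved all of these values: with libraries scaled to equal protein-coding sums the median RNA change of all genes moved to 0.11, the calls over all genes split into 1918 higher and 351 lower instead of 615 and 494, the changes of RNASE2 and SRGN turned to 0.04 and 0.09, and AZU1, LYZ and CFD passed as higher and CTSG as lower (15.4% and 2.81% of all genes).

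**Figure D1:**
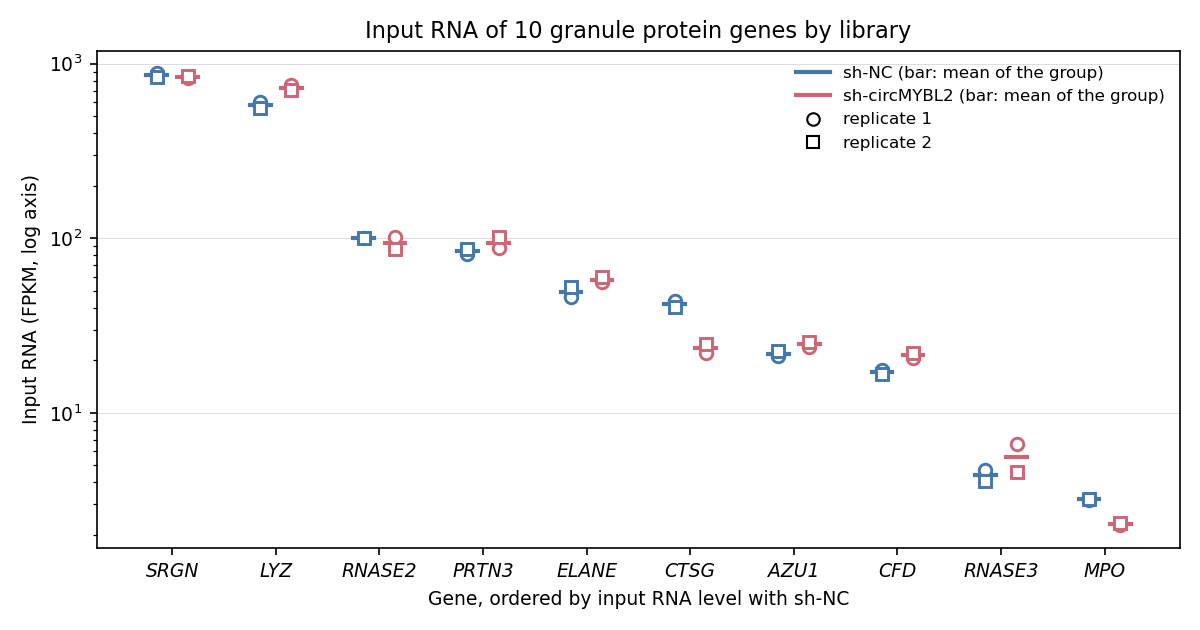
Input RNA in FPKM on a log axis for the 10 genes, ordered by their level with sh-NC; circles and squares are replicates 1 and 2, and bars are group means. CTSG is the gene with the widest gap between the hairpins (43.7 and 40.6 against 22.1 and 24.8 FPKM), and MPO lies at the bottom (3.18 and 3.21 against 2.27 and 2.32 FPKM).

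In the footprints, SRGN, LYZ and PRTN3 were among the 4 highest of all protein-coding genes in each of the 4 libraries, in RPKM. No granule gene passed between the hairpins. LYZ and SRGN footprints were higher, and CTSG footprints lower, in both sh-circMYBL2 libraries than in both sh-NC libraries. Footprints of the 4 genes on chromosome 19 overlapped between the hairpins. The 10 genes held 1.81% and 1.49% of protein-coding footprint reads in sh-NC cells, against 2.22% and 2.86% with sh-circMYBL2. This share followed LYZ and SRGN. Together these held 48.95% and 63.6% of the summed RPKM of the 10 genes with sh-NC, against 73.5% and 85.9% in libraries a and b. The 4 genes on chromosome 19 summed to 2711 and 1760 RPKM with sh-NC, against 1938 and 1323 RPKM in a and b. Limma called 0 of the 10 and 0% of all 9431 genes tested. At an unadjusted p under 0.05 there were 2 of the 10 (CTSG and RNASE3) and 1212 of all genes, and voom on recovered reads called 0 of the 10 and 56 of all genes. The median change over all genes tested was 0.56, and it was -0.01 among genes above 0 in every library. Without overlap 3 of the 10 were higher (LYZ, RNASE3 and SRGN) and 1 lower (CTSG), where 30.7% and 10.9% of all genes tested did so.

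LYZ footprints were 1041 and 1582 RPKM with sh-NC (151 and 518 reads), and 2901 and 4198 RPKM in libraries a and b (1325 and 8245 reads). The change was 1.44 (SE 0.55, 95% interval -0.05 to 2.94, limma adjusted p = 0.406). SRGN footprints were 1754 and 1713 RPKM with sh-NC (176 and 388 reads), and 2716 and 4834 RPKM in a and b (858 and 6566 reads). The change was 1.06 (SE 0.57, 95% interval -0.49 to 2.62, adjusted p = 0.574). In both genes the deepest library, b, was the highest, and the control libraries lay closer together for SRGN than for LYZ. Over all alternatives the change ran from 1.14 to 2.77 for LYZ and from 0.65 to 2.23 for SRGN, without passing. The low end of SRGN came without library b. With the summed RPKM of protein-coding genes made equal between libraries, the changes were 1.38 and 0.999. LYZ and SRGN are themselves part of those sums, and the part of the microRNA share was not tested.

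CTSG footprints were 35.4 and 82.3 RPKM in sh-NC cells and 11.2 and 11.1 RPKM in libraries a and b. These rest on 4 and 21 reads against 4 and 17 reads, so the scaled ratio of 0.164 has a wide counting interval (0.0873 to 0.305). The change was -2.18 (SE 0.57, 95% interval -3.75 to -0.61, adjusted p = 0.323), and 2.11% of genes tested lay below it. The lower footprints went the same way as the lower RNA. Over the alternatives the change ran from -2.77 to -1.58, with adjusted p from 0.0993 to 0.810. CTSG footprints per ELANE footprints were 0.0565 and 0.314 in sh-NC cells, against 0.0312 and 0.0423 with sh-circMYBL2.

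RNASE3 had 0 footprint reads in each sh-NC library, with 1 and 10 reads in libraries a and b (5.36 and 12.5 RPKM). A floor of 3 reads for this gene is 50.6 RPKM in sh-NC library 1 and 22.4 RPKM in library 2, above both of those values. The scaled ratio to that floor, taken once for the sh-NC group, was 0.716. A difference was therefore not detectable at this depth, and the fitted change of 3.21 (SE 0.75, adjusted p = 0.323) depends on the pseudocount: it was 6.37 with 0.1 and 1.43 with 5. RNASE2, its more abundant paralogue, had 161 and 35.7 RPKM with sh-NC (10 and 5 reads) and 61.4 and 126 RPKM in a and b (12 and 106 reads). Its libraries overlap (0.21, SE 0.89, adjusted p = 0.928).

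PRTN3 footprints were 1602 and 1293 RPKM with sh-NC (151 and 275 reads), against 1321 and 870.7 RPKM with sh-circMYBL2 (392 and 1111 reads). ELANE had 627 and 262 RPKM against 361 and 263 RPKM. AZU1 had 293 and 81.6 RPKM against 117 and 95.2 RPKM. CFD had 189 and 123 RPKM against 139 and 94.1 RPKM. In all 4 genes sh-NC library 1, the shallowest library, was the highest. The changes of these 4 genes were -0.55 to -0.40 with adjusted p of 0.718 to 0.792, and each turned above 0 after quantile normalization (0.28 to 0.77). MPO had 6.89 and 9.17 RPKM with sh-NC, on 2 and 6 reads, and 7.67 and 5.86 RPKM in a and b, on 7 and 23 reads (-0.22, SE 0.57, adjusted p = 0.886).

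**Figure D2:**
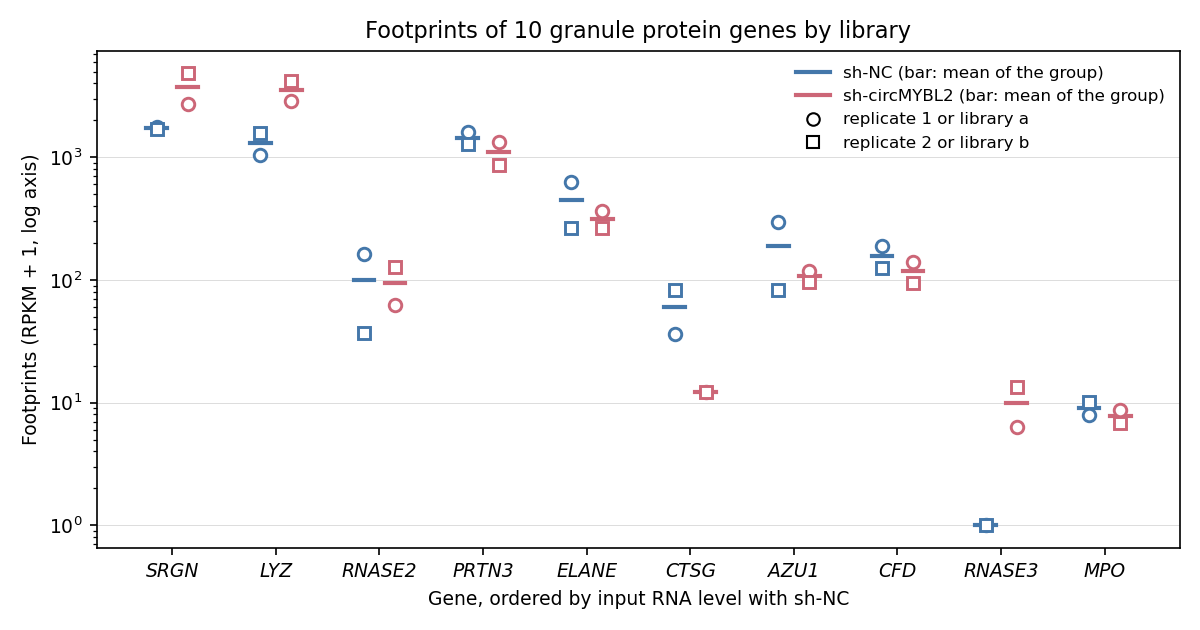
Footprints as RPKM + 1 on a log axis, in the gene order of the RNA plot; circles are sh-NC replicate 1 or library a, squares sh-NC replicate 2 or library b, and bars group means. LYZ and SRGN lie higher in both sh-circMYBL2 libraries, CTSG lies lower, and RNASE3 is at 0 RPKM with sh-NC.

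Set against their RNA, footprints were dense on PRTN3, ELANE, CFD and AZU1 with either hairpin. Mean footprint RPKM per mean RNA FPKM was 17.2 for PRTN3 with sh-NC, above 99.3% of 7702 protein-coding genes tested in both assays, whose median was 0.638. It was 9.11 for CFD, 8.99 for ELANE and 8.58 for AZU1. The shallow sh-NC library 1 raised the latter means: ELANE had 12.7 there and 5.30 in library 2, and AZU1 13.4 and 3.74. With sh-circMYBL2 the ratios were 11.6 for PRTN3 (above 99.7% of genes, whose median was 0.850), 5.47 for CFD, 5.40 for ELANE and 4.29 for AZU1. By these means the 4 neighbours on chromosome 19 stood above at least 96.4% of genes in each group, as LYZ and SRGN did with sh-circMYBL2 (97.3% and 96.7%). Both scales divide by 1 length per gene, the same in both assays (1028 bases for ELANE), so length cancels in the ratio. How the reads of each assay spread along a transcript was not examined. With the tables scaled separately, the ratios rank genes and do not count ribosomes per RNA.

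The other genes spread widely in this ratio. SRGN stood at 2.01 in sh-NC cells, against 4.51 with sh-circMYBL2, and LYZ at 2.26 and 4.87. With sh-NC these were above 81.2% and 83.5% of genes. MPO stood at 2.51 and 2.95 on few reads, above 85.6% and 92.0% of genes. RNASE2, with more RNA than PRTN3 in the sh-NC libraries, stood at 0.980 and 0.996, above 63.2% and 57.8% of genes. By library it had 1.60 and 0.355 in sh-NC cells, on 10 and 5 footprint reads, and 0.652 and 1.34 in libraries a and b. CTSG was at 1.398 with sh-NC, from 0.840 in library 1 to 1.96 in library 2, and at 0.477 with sh-circMYBL2, above 73.0% and 24.1% of genes. It was the serine protease gene with the fewest footprints for its RNA in both groups.

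**Figure D3:**
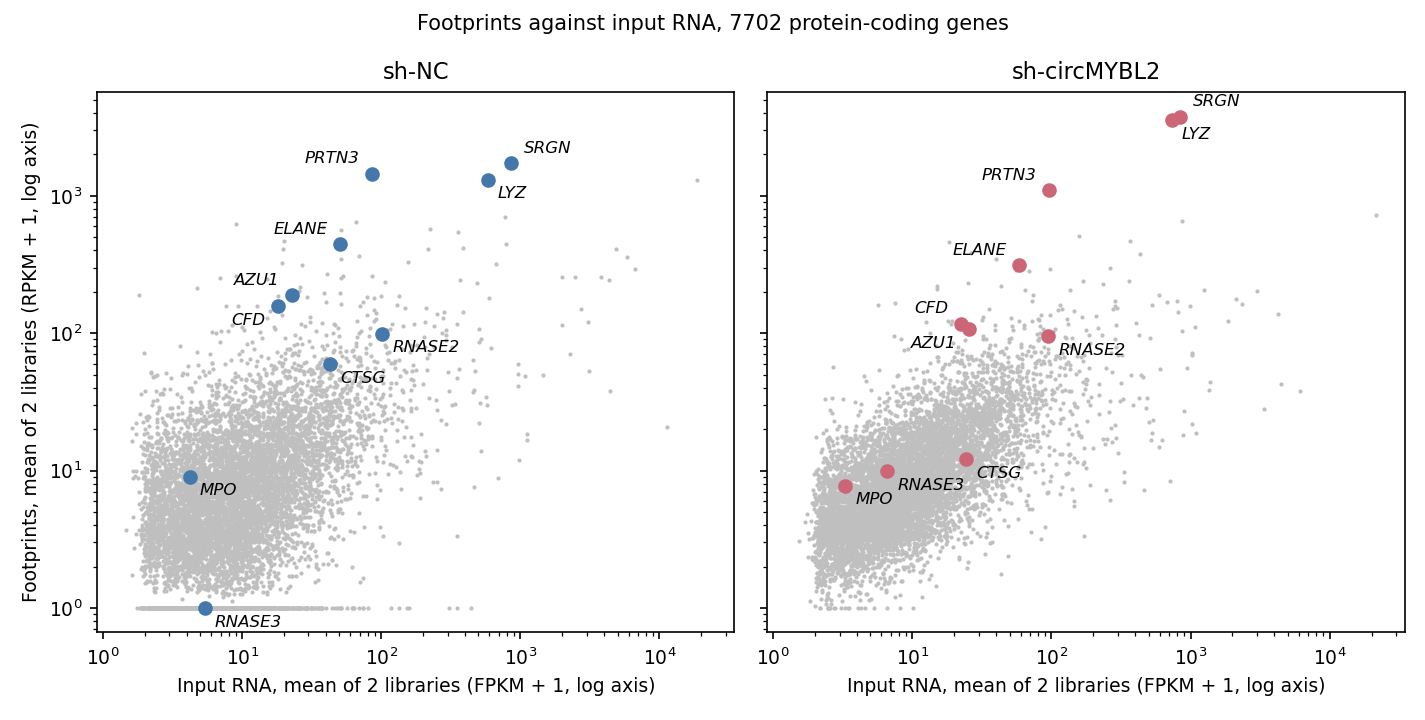
Mean footprints (RPKM + 1) against mean input RNA (FPKM + 1), both on log axes, for 7702 protein-coding genes in grey and the 10 genes in colour, with sh-NC on the left and sh-circMYBL2 on the right. PRTN3, ELANE, AZU1 and CFD lie at the upper edge of the cloud, RNASE2 and CTSG within it.

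The change in translational efficiency (TE), that is, in footprints after taking off the change in RNA, did not pass for any of the 10 genes. It uses the same libraries as the comparisons above. Limma called 0 of the 10 and 5.31% of 8260 genes tested, and voom called 0 of the 10 and 176 of all genes. At an unadjusted p under 0.05 in limma there were 1 of the 10 and 1618 of all genes. The granule gene was RNASE3 (2.93, SE 0.61, adjusted p = 0.0564), with no control read. TE changes were 1.11 for LYZ (SE 0.47, adjusted p = 0.269) and 1.10 for SRGN (SE 0.48, adjusted p = 0.287), beside a median of 0.57 for all genes tested. Among genes above 0 in every library the median was 0.03. CTSG had -1.36 (SE 0.56, 95% interval -2.75 to 0.04, adjusted p = 0.268). The 4 genes on chromosome 19 had -0.72 to -0.58, with adjusted p of 0.453 to 0.694. RNASE2 and MPO had 0.30 and 0.13. For SRGN, with flat RNA, the TE value is nearly its footprint value, while for CTSG the RNA change takes up -0.82 of the -2.18 in footprints. A single spread was fitted per gene over both assays although footprints varied more. With weights per assay limma called 1 gene of all, and none of the 10.

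TE calls depended on single footprint libraries, for all genes as for these. Limma called 36.8% of all genes without sh-NC library 1, 59.3% without sh-NC library 2, 13.0% without library a and 12.2% without library b. Of the 10 granule genes it called 2, 6, 2 and 1, shares that on 10 genes are not read as differing from those of all genes. CTSG had a TE change of -1.95 without sh-NC library 1 and -0.76 without library 2 (adjusted p = 0.00295 and 0.0131). AZU1 had 0.19 and -1.64 (adjusted p = 0.495 and 0.00300), and ELANE 0.01 and -1.24 (adjusted p = 0.980 and 0.0203). All 3 genes thus had values that moved with the sh-NC library used. Without library 2 the other genes called were LYZ (1.42, adjusted p = 0.0400), CFD (-1.02, adjusted p = 0.0462) and RNASE3, and without library a SRGN was called (1.52, adjusted p = 0.0110). RNASE3 was called in each of these 4 fits, but on 0 control reads and values below the sh-NC floors of 3 reads. No difference is therefore read from it. In such fits the group left with 1 library is assumed to vary like the others.

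**Figure D4:**
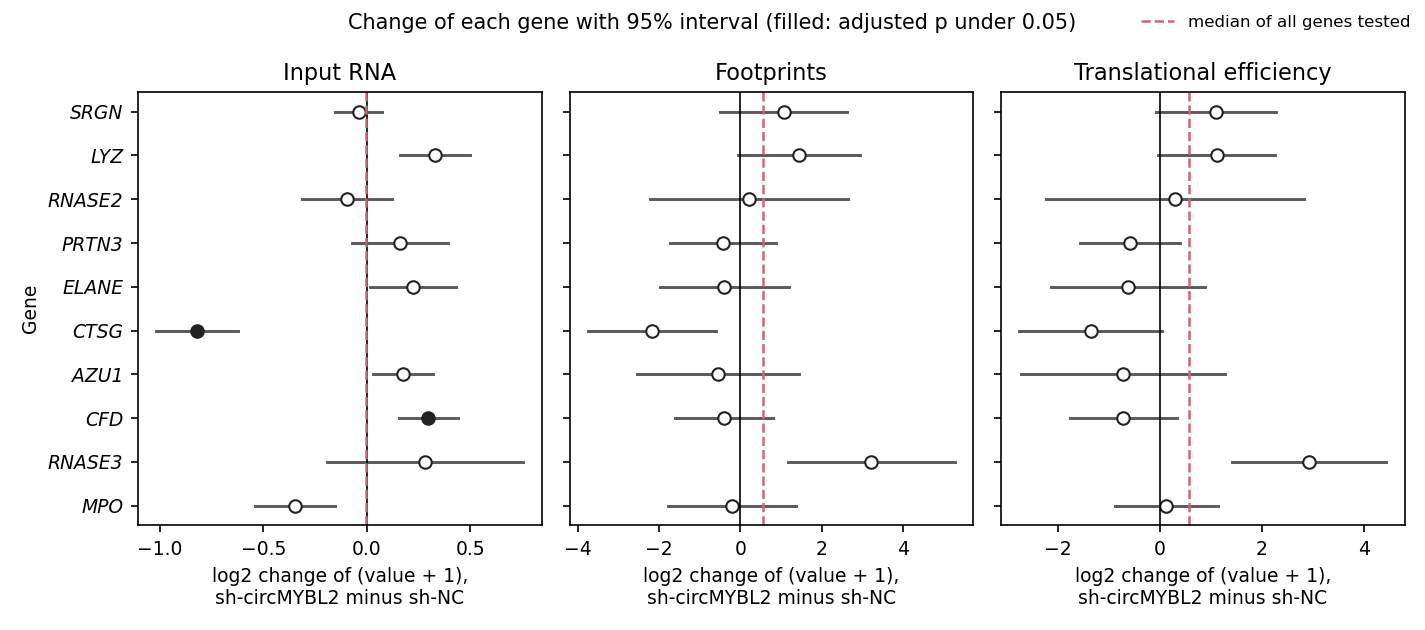
Log2 changes of value + 1, sh-circMYBL2 minus sh-NC, with 95% intervals from limma for the 10 genes in input RNA, footprints and TE; filled points passed at an adjusted p under 0.05, and dashed lines are the medians of all genes tested (0.00, 0.56 and 0.57). The filled points are CTSG and CFD in input RNA, and the axes differ between panels.

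Other granule and lysosome genes were looked up as lists. Among 5 tested genes of the specific and gelatinase granules, which form later than primary ones, 4 fell and 0 rose in RNA (median -0.67), beside 3.96% lower and 4.92% higher over all genes. No call of this or any other list below held with 1 RNA library left out, when 0 genes of the table passed. ORM1, an acute-phase protein, went from 20.6 and 23.6 to 4.797 and 5.197 FPKM (-1.94, adjusted p = 0.00738), CHI3L1, a chitinase-like protein, from 47.6 and 49.9 to 29.2 and 31.4 FPKM (-0.67, adjusted p = 0.0122), and ORM2 from 1.48 and 1.83 to 0.569 and 0.453 FPKM. The other gene of the 4 was CYBB, the oxidase subunit gp91phox (-0.38, adjusted p = 0.0227), named after its values were seen. ORM1 and ORM2 are near-identical copies and may share reads. The remaining 16 of the 21 listed, such as LTF, CAMP and MMP9, did not reach the filter.

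Of 22 tested lysosomal genes 5 rose and 1 fell (median 0.11), where 4.92% and 3.96% of all genes did. CTSL, a cysteine cathepsin, fell from 13.8 and 14.8 to 7.40 and 7.42 FPKM (-0.86, adjusted p = 0.0106). CTSZ, another cathepsin, rose from 50.9 and 54.2 to 73.7 and 76.1 FPKM (0.50, adjusted p = 0.0166), and GUSB, the beta-glucuronidase, rose by 0.36 (adjusted p = 0.0202). The other 3 that rose were CTSS, CTSB and LAMP1 (0.32, 0.23 and 0.25), named after their values were seen. CTSL thus moved like CTSG, and its relatives CTSZ, CTSS and CTSB moved the other way. None of 3 tested genes among other primary granule proteins passed; CD63, a granule membrane protein, had 100.8 and 95.8 against 94.5 and 94.96 FPKM. The eosinophil, basophil and mast cell granule list, which holds EPX, PRG2 and CPA3, had 0 of 10 genes above the filter, whereas RNASE2 lay well above it.

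Genes that regulate or handle the granule proteins were called in both directions, beside 4.92% higher and 3.96% lower over all genes tested. The shares in lists this small are not read as differing from those. Of 7 tested protease inhibitors 1 rose and 1 fell. CST7, an inhibitor of cathepsins also called cystatin F, fell from 21.7 and 25.3 to 13.01 and 14.4 FPKM (-0.73, adjusted p = 0.0286). CST3, cystatin C, rose from 11.1 and 10.5 to 14.6 and 17.02 FPKM (0.50, adjusted p = 0.0472). Of 15 tested genes of maturation and sorting 1 rose and 2 fell. RAB27A, a GTPase of granule release, fell from 12.7 and 11.7 to 7.94 and 8.17 FPKM (-0.54, adjusted p = 0.0217), PDIA3, an ER thiol isomerase, fell by 0.18 (adjusted p = 0.0472), and AP3B1, an adaptor subunit that sorts elastase, rose by 0.31 (adjusted p = 0.0252).

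Of 11 tested transcription factors 2 rose and 0 fell, where 4.92% and 3.96% of all genes did. The median change of this list was -0.05, so the 2 that rose do not stand for the list. IRF8, a factor of monocytes, went from 19.5 and 19.7 to 24.6 and 26.6 FPKM (0.37, adjusted p = 0.0324), and CEBPA, a factor of granulocyte precursors, from 30.2 and 29.4 to 34.2 and 34.4 FPKM (0.20, adjusted p = 0.0468). None of 9 genes that build serglycin's chains or of 7 haem synthesis genes passed in RNA; the most abundant, CSGALNACT2 and ALAS1, had adjusted p of 0.0582 and 0.401. Of 3 tested complement genes, CD55, which restrains complement on cell surfaces, fell (-0.44, adjusted p = 0.0357). No gene of these lists passed in footprints. In TE, UROD, a haem synthesis enzyme named after its values were seen, passed (2.38, adjusted p = 0.0313) with 0 control reads and 3 and 16 reads in libraries a and b.

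**Figure D5:**
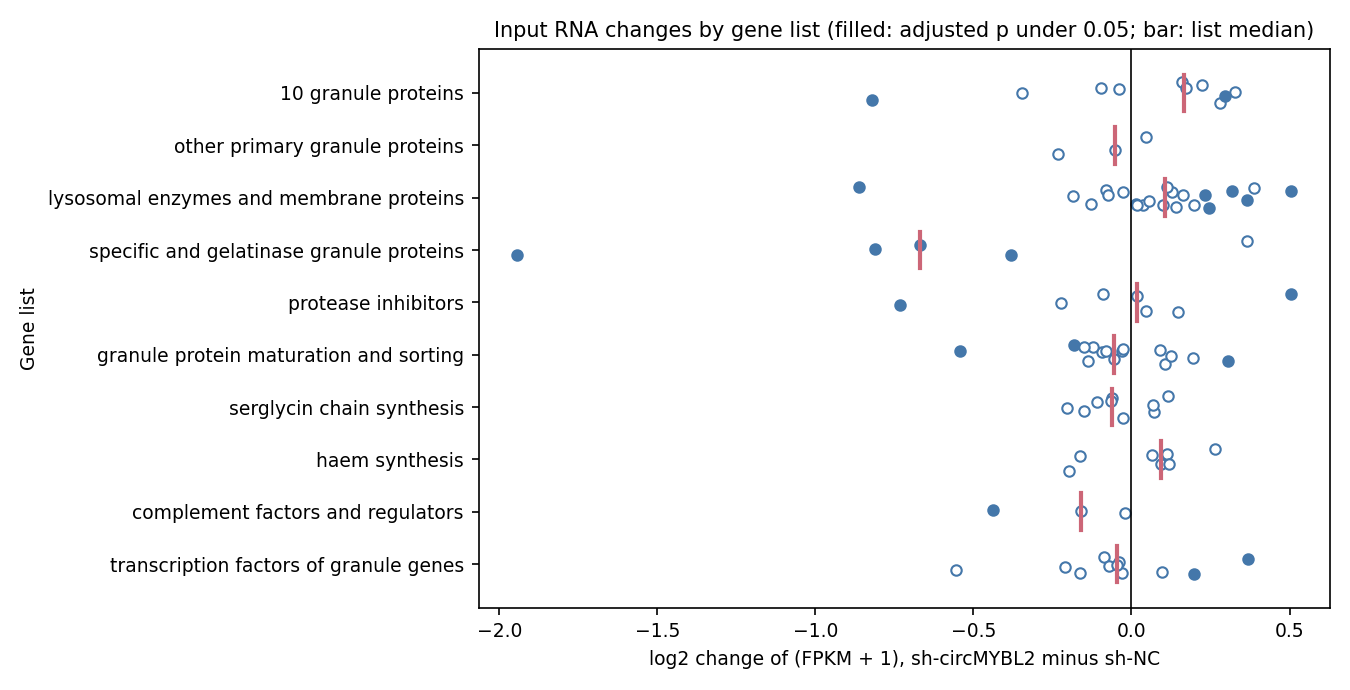
Input RNA change of each tested gene as log2 of FPKM + 1, sh-circMYBL2 minus sh-NC, by gene list; filled points passed at an adjusted p under 0.05, red bars are list medians, and the vertical scatter within a row only separates points. The specific and gelatinase granule list has 4 of 5 genes filled on the lower side, and the 10 granule proteins have CTSG filled on the lower and CFD on the higher side.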

How the data were processed

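Footprints and input RNA were measured in MOLM-13 cells with sh-NC or sh-circMYBL2, 2 libraries per group. Per the submitters' processing notes, the authors' tools included HISAT2, Bowtie, cutadapt, featureCounts and DESeq2, and the build was hg38. Their versions, roles and strand setting: not given in the sources used here. The deposited footprint table holds RPKM values and the deposited RNA table FPKM values, both made by the authors per gene length. All value columns were used. Reads were recovered by finding, per gene, the smallest length at which every value was a whole multiple of the library's step (tolerance 0.005 reads); steps came from microRNA genes, of whose values 98.6% to 99.4% were whole within 0.02. This gave 30193 of 30194 genes above 0.

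Each table was fitted with limma 3.58.1 in R 4.3.3 (lmFit, eBayes with trend; tests were two-sided) on log2(value + 1). A gene was tested where its mean over the libraries reached 1. This understates changes of low genes. TE was the hairpin-by-assay interaction over 8 libraries. P-values were Benjamini-Hochberg adjusted across the genes tested (threshold 0.05). Exact permutation of 2 against 2 libraries was not used, as it cannot reach the threshold. Counting intervals are exact binomial at 95%. Scripts were tested on simulated data. Members and lists were chosen with earlier results of these data known. Named genes were the 10 members, up to 3 genes per list past the threshold in RNA by size of change (else the most abundant), and neighbours of members. Alternatives were pseudocounts of 0.1 and 5, 2 other filters, quantile normalization, equal protein-coding sums, voom on recovered reads, each library left out, a replicate block and weights per assay. A filter on values above 0 in every library was added after seeing the data. Symbols of all 10 matched RefSeq (GRCh38.p14).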

Additional observations from a re-analysis of the deposited data

How the results depend on the processing

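In input RNA, 1109 genes were called, against 97 with no filter, 2269 with equal protein-coding sums, 3275 by voom, and 0 with any 1 library left out or with the replicate block. Granule genes called higher were 1, against 0 with no filter or quantile normalization, 2 with a mean of at least 5, 3 with equal protein-coding sums, 4 by voom, and 0 with the replicate block or any library left out. Those called lower were 1, against 0 with no filter, the replicate block or any library left out, and 2 by voom. The deviations of same-numbered RNA libraries correlated with r = 0.027 and the labels give the numbers no shared source, so the block is shown only here. RNASE2 turned to 0.0363 and SRGN to 0.0935 with equal protein-coding sums, and RNASE2 ran from -0.203 to 0.0104 with 1 library left out.

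In footprints, genes called were 0, against 2 by quantile normalization, 56 by voom, and 0 to 1042 with 1 library left out; the granule genes higher were then 0 to 1 (RNASE3). The counts were 1042 without library a and 999 without library b. Quantile normalization turned ELANE to 0.767, PRTN3 to 0.680, AZU1 to 0.280 and CFD to 0.320. With 1 library left out ELANE ran from -1.02 to 0.232 and AZU1 from -1.47 to 0.368, the extremes lacking an sh-NC library, and RNASE2 from -0.863 to 1.28.

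In TE, 439 genes were called, against 853 and 2 with pseudocounts of 0.1 and 5, 42 with a mean of at least 5, 0 by quantile normalization, 176 by voom, 0 among genes above 0 in every library, 1 with weights per assay, and 0 to 4895 with 1 library left out. The granule genes higher were 0, against 1 with a pseudocount of 0.1 (RNASE3) and 0 to 2 with 1 library left out; those lower were 0 to 4. Quantile normalization turned MPO to -0.200, ELANE to 0.251 and PRTN3 to 0.101, and equal protein-coding sums turned MPO to -0.0220. With 1 library left out MPO ran from -0.0512 to 0.314, ELANE from -1.24 to 0.0107, AZU1 from -1.64 to 0.194 and RNASE2 from -0.767 to 1.38. Where no cause is named, the cause was not tested. Of 413 values of single granule genes under an alternative, 358 kept direction and side of the threshold. That figure includes genes called neither in the main fit nor under the alternative, so it does not measure how stable the calls were. Of 13 alternatives in input RNA, CTSG lost its call in 6 and CFD in 7. RNASE3 and MPO were below the filter on a mean of at least 5 in RNA, and RNASE3 was not among genes above 0 in every footprint library, so they have no value there. Footprint results are limited by depth: 80148 reads in the shallowest library. No paired fit of footprints or TE was possible because the columns of the sh-circMYBL2 footprints carry no replicate number.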

Other observations

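Among neighbours of the granule genes outside the chromosome 19 cluster, TSPOAP1 and DDX21 passed in input RNA as lower and the others tested did not. Over all genes tested, 3.96% were lower. TSPOAP1, next to MPO on chromosome 17, had 26.9 and 27.8 FPKM with sh-NC and 20.8 and 21.6 FPKM with sh-circMYBL2 (-0.35, SE 0.04, limma adjusted p = 0.0233). DDX21, an RNA helicase next to SRGN, had 87.0 and 87.2 FPKM against 75.9 and 74.2 FPKM (-0.21, SE 0.03, adjusted p = 0.0344). CPSF6 and YEATS4 on either side of LYZ changed by -0.01 and 0.08 (adjusted p = 0.911 and 0.372). METTL17 beside RNASE2 changed by 0.26 and VPS26A beside SRGN by 0.03 (limma adjusted p = 0.218 and 0.689). The neighbours of CTSG, CMA1 and GZMH, had no read in any RNA library. Lactoperoxidase (LPO), the relative of MPO beside it, had 0.246 to 0.443 FPKM and was not tested.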
